A study of Mus musculus with 7 samples.

Results

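Glutamate is the transmitter that photoreceptors, bipolar cells and ganglion cells release, and in excess it is toxic to neurons. The genes described here are the 33 rows of the count table, of 25655 in all, whose symbols name an AMPA, kainate, delta or NMDA receptor subunit (Gria, Grik, Grid and Grin), a metabotropic glutamate receptor (Grm), an uptake transporter (Slc1a1, Slc1a2 and Slc1a7), a vesicular transporter (Slc17a6, Slc17a7 and Slc17a8) or an auxiliary subunit of kainate receptors (Neto1 and Neto2). All 33 had enough counts to be tested, among 14750 tested genes.

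Vesicular transporters load glutamate into synaptic vesicles. Once released, it opens ionotropic receptors, which are channels assembled from several subunits, and binds metabotropic receptors, which act through G proteins. Uptake transporters of glia and neurons then remove it from the synaptic space.

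Whole retinas of wild-type C57BL/6 mice were collected 2 days after the optic nerve had been crushed, an injury that cuts the axons of retinal ganglion cells. Each retina had received AAV2, an adeno-associated viral vector, that carried either Tppp3, which encodes a tubulin polymerization-promoting protein, or a control construct that the treatment protocol calls CMV-control-AAV2. The promoter of the Tppp3 vector and the age of the mice are not stated in the labels. Poly(A) RNA was sequenced in 3 Tppp3 AAV2 libraries and 3 control AAV2 libraries. All 6 retinas were crushed, so the comparison is between vectors after injury. It asks which transcripts differ with Tppp3 overexpression.

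Library totals lay between 19961359 and 21843892 counts with Tppp3 AAV2 and between 10961443 and 16218074 with control AAV2, so the groups did not overlap in depth. Tppp3 stood at 53.7, 36.5 and 41.8 CPM (read counts relative to library size, scaled by TMM) with Tppp3 AAV2 and at 18.7, 22.2 and 28.0 CPM with control AAV2 (log2 fold change 0.94, adjusted p = 0.639 in edgeR and 1.33e-05 in DESeq2). Rod, cone, bipolar, amacrine, horizontal, ganglion cell and Müller glia markers were all detected. A positive fold change was found in 0 of 8 rod markers (median log2 fold change -0.063) and 1 of 6 cone markers (median -0.082). None of them had an unadjusted p under 0.05 in edgeR, and the sums of both lists overlapped between groups. Oligodendrocyte markers summed to 39.96 to 43.9 CPM with Tppp3 AAV2 and 36.0 to 42.4 CPM with control AAV2 over 6 genes, and Olig2 had no count in any library. Pigment epithelium markers differed widely within both groups, with sums over 10 genes of 148, 49.8 and 142 CPM with Tppp3 AAV2 and 146, 34.7 and 38.0 CPM with control AAV2. Sums of 5 epithelial markers were 75.5 to 98.4 CPM with Tppp3 AAV2 and 107 to 127 CPM with control AAV2 and did not overlap. In edgeR 4 of the 5 were lower at an unadjusted p under 0.05, against 3.55% of all tested genes. Krt7 passed adjustment (log2 fold change -0.95, edgeR adjusted p = 0.0321), while Krt18 had a log2 fold change of -0.083. In whole retina, fewer cells of a type and less RNA per cell cannot be told apart, and a difference confined to ganglion cells is diluted by all other cells.

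Promoter sequence was taken from RefSeq (build GRCm38.p6), where 21 of the 33 genes had an entry. Of the 5 genes with the smallest p, named below, Gria2 and Slc1a7 had one, and the 250 bases before their annotated starts are shown because both genes recur in the comparison. Windows were searched on both strands for the core of RE1, the element bound by the repressor REST that keeps many neuronal genes silent outside neurons, for the GC box GGGCGG and for the homeobox site GGATTA recognised by photoreceptor factors. Capitals mark the matches.
Gria2, chr3:80802836-80803085, minus strand: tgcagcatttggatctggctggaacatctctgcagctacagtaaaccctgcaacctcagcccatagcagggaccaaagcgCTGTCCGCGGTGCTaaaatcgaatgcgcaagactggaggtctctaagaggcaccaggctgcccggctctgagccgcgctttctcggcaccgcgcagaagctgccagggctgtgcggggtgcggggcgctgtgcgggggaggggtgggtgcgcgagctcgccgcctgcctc
Slc1a7, chr4:107968156-107968405, plus strand: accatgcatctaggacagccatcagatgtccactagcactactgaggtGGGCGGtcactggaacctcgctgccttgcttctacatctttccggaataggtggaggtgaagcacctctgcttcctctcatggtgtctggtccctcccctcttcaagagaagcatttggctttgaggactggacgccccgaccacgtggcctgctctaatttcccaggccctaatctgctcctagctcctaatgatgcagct
The Gria2 window holds the RE1 core, read on the opposite strand, and the Slc1a7 window holds 1 GC box. Of 32851 promoter windows in the table, 15 (0.0457%) held the RE1 core, and among the 27 windows of the 21 genes only that of Gria2 did. The GC box was present in 14 of these 27 windows (51.9%) and in 32.7% of all windows, and GGATTA in 0 of 27 against 6.25% of all. These are letter matches, and binding was not measured.

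Across the set, differences between Tppp3 AAV2 and control AAV2 were small. In edgeR's quasi-likelihood test 0 of the 33 genes passed an adjusted p of 0.05 in either direction, where the background over all tested genes was 0% higher and 0.0136% lower, and DESeq2's Wald test and limma's voom also placed 0 of them past it. The smallest adjusted p was 0.639. At an unadjusted p under 0.05, edgeR placed 5 of 33 (15.2%) higher with Tppp3 AAV2, against 3.67% of all tested genes, and 0 lower, against 3.55% (either direction, 7.23%). The 5 were Grin2b, Grik1, Slc1a7, Gria3 and Gria2. DESeq2 placed 3 of them, Grik1, Grin2b and Slc1a7, under an unadjusted 0.05, against 2.38% of all genes it tested on that side. Groups did not overlap in 7 of 33 genes (21.2%) on the higher side, against 6.92% of all tested genes, and in 1 of 33 (3.03%) on the lower side, against 7.02%. Of the 33 log2 fold changes 23 were positive (69.7%, against 50.9% of all tested genes) and 10 negative (against 49.1%), with a median of 0.10, where the median of all tested genes was 0.0030. Sums of 6 amacrine cell markers also separated the groups, at 1150 to 1192 CPM with Tppp3 AAV2 and 1104 to 1145 CPM with control AAV2, and their part in these counts was not tested.

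**Figure D1:**
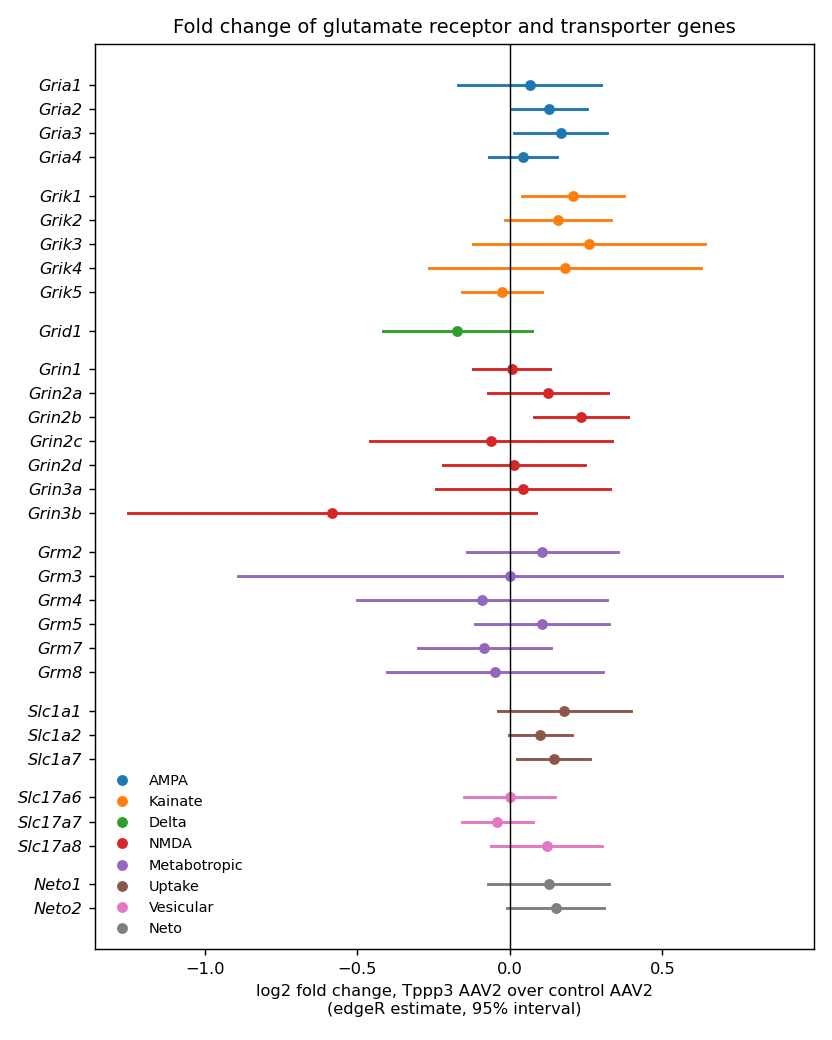
Log2 fold change of 31 of the 33 genes, Tppp3 AAV2 over control AAV2, with edgeR's 95% interval as a bar and colours for the classes. Intervals of Gria2, Gria3, Grik1, Grin2b and Slc1a7 lie above 0, that of Grin3b is centred at -0.58 and crosses 0, and none of those drawn passes after adjustment over all genes.

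Over all tested genes with a length, the log2 fold change moved with both transcript length and GC content. The longest protein-coding transcripts of the 33 genes had a median of 5431 bases, against 3220 bases over all tested genes with a length, and 19 of the 33 fell into the longest of 4 equal length classes of genes. The median log2 fold change of all genes was -0.052 in the shortest class and 0.044 in the longest. By GC content it was 0.042 in the lowest of 4 equal classes and -0.031 in the highest, with 11 and 8 of the 33 genes. Length and GC were corrected together only. With a smooth offset for length and GC content in each library, the median of the 33 genes was 0.039 and 2 of 33 (6.06%), Grik1 and Slc1a7, had an unadjusted p under 0.05 in edgeR, against 2.00% of all genes in that fit. Single libraries also moved the count of 5. It was 3, 4 and 2 without Tppp3 AAV2 replicates 1, 2 and 3, where 2.68%, 4.84% and 2.46% of all genes were called on that side. It was 6, 2 and 1 without control AAV2 replicates 1, 2 and 3, where 4.10%, 2.56% and 2.50% of all genes were. The last of these, 1 of 33 (3.03%), is near its background. Without Tppp3 AAV2 replicate 3 the median log2 fold change was 0.040. With the level of pigment epithelium markers as a covariate, only Grin2b of the 5 had an unadjusted p under 0.05 in edgeR, and the log2 fold changes of Gria2, Gria3, Grik1 and Slc1a7 were 0.064, 0.11, 0.13 and 0.086.

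**Figure D2:**
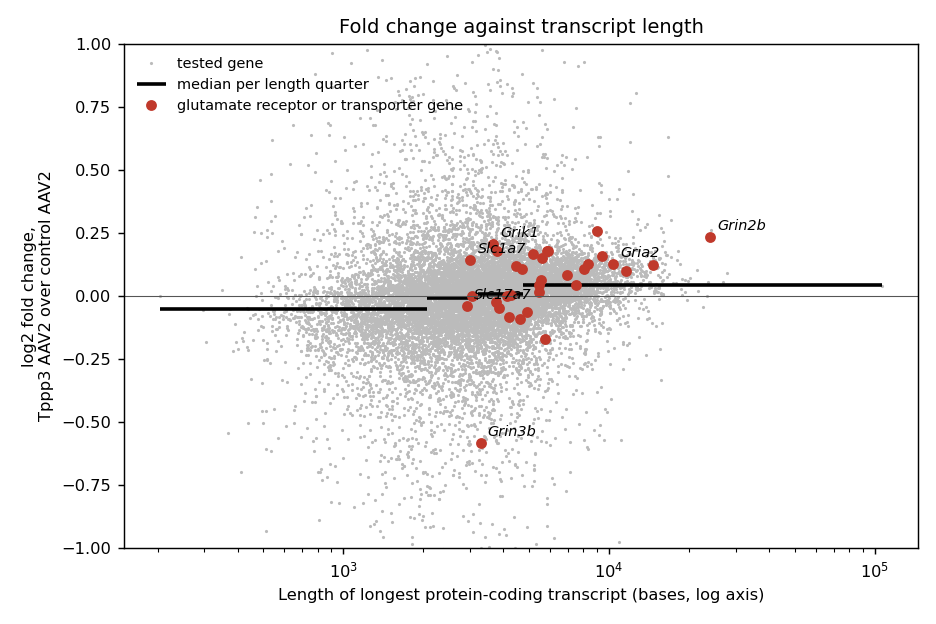
Log2 fold change (Tppp3 AAV2 over control AAV2) against the length of the longest protein-coding transcript on a log axis, for tested genes (grey) and the 33 glutamate genes (red), with black lines for the median in each of 4 equal length classes. The black lines climb with length, at -0.052 in the shortest class and 0.044 in the longest; 96 genes beyond 1 on either side lie outside the plot.

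Levels between genes were compared per length, as CPM per kilobase of that transcript. The most abundant of the set was Slc17a7, at 594 ± 6.04 CPM per kb with Tppp3 AAV2 and 611 ± 16.1 with control AAV2 (SD, n = 3 each). Next came Slc1a7, Slc1a2, Grik1, Grik5 and Grin1, with means of 41.8, 30.3, 29.7, 24.1 and 23.5 CPM per kb with Tppp3 AAV2 and, in the same order of genes, 37.9, 28.3, 25.8, 24.5 and 23.4 with control AAV2. At the low end, Grin3b, Grm3 and Grik4 had means of 0.395, 0.564 and 0.762 CPM per kb with Tppp3 AAV2 and 0.592, 0.572 and 0.676 with control AAV2. The length used may not be that of the form expressed in retina, above all for Grin2b and Grin2a, whose longest transcripts span 24060 and 14634 bases.

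**Figure D3:**
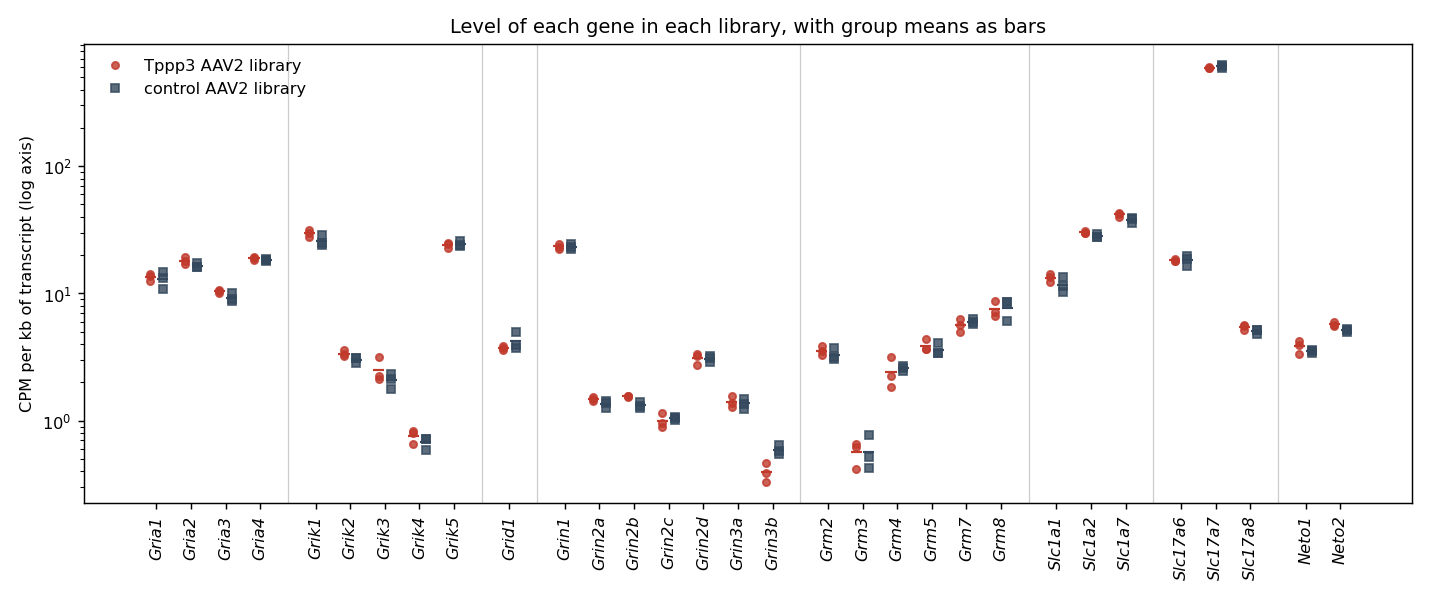
Level of 31 of the 33 genes in CPM per kb of transcript on a log axis, with Tppp3 AAV2 libraries as circles left of control AAV2 libraries as squares and group means as short bars. Slc17a7 lies far above all others, at 594 CPM per kb with Tppp3 AAV2 and 611 with control AAV2 on average, Grin3b and Grm3 lie lowest, and the groups overlap or nearly meet at most genes, with Grin3b apart at 0.395 with Tppp3 AAV2 and 0.592 with control AAV2 on average.

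Among the vesicular transporters, Slc17a7 (VGLUT1), the form of photoreceptors and bipolar cells, dominated. Its libraries held 1724, 1721 and 1753 CPM with Tppp3 AAV2 and 1794, 1822 and 1731 CPM with control AAV2. The groups overlapped, and the log2 fold change was -0.041 (95% interval -0.16 to 0.076). Slc17a6 (VGLUT2), the form of ganglion cells, stood at 76.8, 74.9 and 73.9 CPM with Tppp3 AAV2 and at 67.8, 80.8 and 76.8 CPM with control AAV2. All 3 Tppp3 AAV2 values lay inside the control range, and the 95% interval of the log2 fold change ran from -0.15 to 0.15. The sum of 12 ganglion cell markers likewise overlapped, at 755 to 866 CPM with Tppp3 AAV2 and 794 to 813 CPM with control AAV2. Slc17a8 (VGLUT3), found in a class of amacrine cells, had 25.4, 24.8 and 23.0 CPM with Tppp3 AAV2 and 23.0, 21.3 and 23.0 CPM with control AAV2 (log2 fold change 0.12, edgeR adjusted p = 0.802). Per length, Slc17a7 made up 96.2% ± 0.129 of the vesicular transporter level with Tppp3 AAV2 and 96.3% ± 0.243 with control AAV2 (SD, n = 3 each).

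AMPA receptors carry most fast excitation in the inner retina. Gria2 encodes GluA2, the subunit whose RNA-edited form keeps calcium out of the channel. It stood at 187, 175 and 199 CPM with Tppp3 AAV2 and at 179, 168 and 167 CPM with control AAV2. Tppp3 AAV2 replicate 2 lay below control replicate 1, so the groups overlapped. The log2 fold change was 0.13 (95% interval 0.0020 to 0.25, edgeR unadjusted p = 0.0471 and adjusted p = 0.687), and it was 0.081 without Tppp3 AAV2 replicate 3 and 0.013 with the length and GC offset. Gria3, another pore subunit, had 52.7, 54.1 and 55.1 CPM with Tppp3 AAV2 and 52.4, 44.9 and 47.1 CPM with control AAV2. Every Tppp3 AAV2 library was above every control library, though Tppp3 AAV2 replicate 1 (52.7 CPM) and control replicate 1 (52.4 CPM) nearly met. Its log2 fold change was 0.17 (edgeR adjusted p = 0.673). With counts thinned to equal depth, the log2 fold change of Gria3 was 0.12 (edgeR unadjusted p = 0.132). Gria2 had an unadjusted p of 0.067 in that edgeR fit.

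Gria1 averaged 74.8 ± 4.65 CPM with Tppp3 AAV2 and 71.4 ± 10.6 with control AAV2, and Gria4 averaged 103 ± 3.47 CPM with Tppp3 AAV2 and 99.7 ± 2.26 with control AAV2 (SD, n = 3 each). Both overlapped, with log2 fold changes of 0.065 and 0.044. Control replicate 1 held the lowest Gria1 value of all, 60.1 CPM, and without it the Gria1 log2 fold change turned to -0.047. Without control replicate 2 it was 0.17. Per length, Gria4 and Gria2 contributed most to the AMPA level, at 31.1% and 29.7% with Tppp3 AAV2 and 32.2% and 29.0% with control AAV2. Gria1 followed at 22.2% with Tppp3 AAV2 and 22.6% with control AAV2, and Gria3 at 17.1% with Tppp3 AAV2 and 16.3% with control AAV2. All 4 shares overlapped between groups.

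Kainate receptors carry part of the cone signal into OFF bipolar cells, and Grik1 encodes their GluK1 subunit. Grik1 held 115, 109 and 102 CPM with Tppp3 AAV2 and 105, 87.2 and 90.6 CPM with control AAV2. Control replicate 1 lay above Tppp3 AAV2 replicate 3, so the groups overlapped. The log2 fold change was 0.21 (95% interval 0.040 to 0.37, edgeR unadjusted p = 0.0199 and adjusted p = 0.648), and with the length and GC offset it was 0.20. Leaving out 1 library gave 0.15 to 0.29, with an unadjusted p over 0.05 in 3 of 6 such fits. Markers of bipolar cells summed to 1353 to 1641 CPM with Tppp3 AAV2 and 1267 to 1492 CPM with control AAV2, and 5 of 7 had a positive fold change; their part in the Grik1 difference was not tested.

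The other kainate subunits were mixed. Grik2 was higher in every Tppp3 AAV2 library, at 31.3, 33.7 and 30.2 CPM, than in any control library, at 29.4, 29.3 and 26.8 CPM (log2 fold change 0.16, 0.056 with the length and GC offset, edgeR adjusted p = 0.728). Grik3 had its highest value, 28.2 CPM, in Tppp3 AAV2 replicate 2, where the remaining libraries held 16.0 to 21.1 CPM. Its log2 fold change of 0.26 was 0.060 without that library. Grik5, which needs a GluK1 to GluK3 partner to form a channel, averaged 90.6 ± 4.32 CPM with Tppp3 AAV2 and 92.0 ± 4.94 with control AAV2 (SD, n = 3 each), with a log2 fold change of -0.025. Grik4, its close relative, had 4.88, 4.74 and 3.85 CPM with Tppp3 AAV2 and 4.24, 3.44 and 4.25 CPM with control AAV2, with a log2 fold change of 0.18 and a 95% interval of -0.27 to 0.63. Per length, Grik5 held 39.8% ± 0.574 of the kainate level with Tppp3 AAV2 and 43.7% ± 2.997 with control AAV2, with no overlap (at most 40.2% with Tppp3 AAV2, at least 40.7% with control AAV2). Grik1 held 49.2% with Tppp3 AAV2 and 46.0% with control AAV2, with overlap. These shares were not tested.

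Neto1 and Neto2 encode membrane proteins that bind kainate receptors and slow their gating. Neto2 had 31.5, 31.1 and 33.6 CPM with Tppp3 AAV2 and 29.5, 28.1 and 29.1 CPM with control AAV2. The groups did not overlap, and the log2 fold change was 0.15 (edgeR unadjusted p = 0.0635, adjusted p = 0.717). With the length and GC offset it was 0.060. Neto1 averaged 32.1 ± 3.60 CPM with Tppp3 AAV2 and 29.4 ± 0.690 with control AAV2 (SD, n = 3 each), and its lowest value, 28.1 CPM, came from Tppp3 AAV2 replicate 1. Its log2 fold change of 0.13 was 0.21 without that library and 0.057 without Tppp3 AAV2 replicate 2.

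Delta receptors resemble AMPA receptors in sequence but act as adhesion partners of cerebellins more than as glutamate-gated channels. Grid1 had 22.0, 20.7 and 21.3 CPM with Tppp3 AAV2 and 28.5, 21.2 and 22.5 CPM with control AAV2. Control replicate 1 stood apart, and the log2 fold change of -0.17 (edgeR adjusted p = 0.783) was -0.038 without it.

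NMDA receptors need Grin1 in every channel, and their calcium entry has been linked to ganglion cell death. Grin1 averaged 100.4 ± 4.68 CPM with Tppp3 AAV2 and 99.98 ± 4.96 with control AAV2 (SD, n = 3 each). The 95% interval of its log2 fold change was -0.12 to 0.13. In the GENCODE annotation 29.9% of its exon bases are shared with the opposite-strand gene Grin1os, and since the library kit does not mark strand, reads of the 2 genes cannot be told apart there.

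Grin2b, a glutamate-binding subunit prominent in development, had the smallest p of the 33 genes. It stood at 37.8, 36.8 and 37.5 CPM with Tppp3 AAV2 and at 33.6, 30.5 and 31.4 CPM with control AAV2. The Tppp3 AAV2 libraries lay close together and all above the control libraries. The log2 fold change was 0.23 (SE 0.070, 95% interval 0.079 to 0.39), with an unadjusted p of 0.00659 and an adjusted p of 0.639 in edgeR. Its unadjusted p was under 0.05 in 16 of 18 fits, the main one included. The 2 exceptions were the fits with the length and GC offset, where the log2 fold change was 0.14 without and 0.15 with the replicate block. Of the whole set, Grin2b had the longest transcript.

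The remaining glutamate-binding subunits showed no such separation. Grin2a averaged 21.7 ± 0.974 CPM with Tppp3 AAV2 and 19.9 ± 1.29 with control AAV2, and Grin2c 4.89 ± 0.663 CPM with Tppp3 AAV2 and 5.12 ± 0.123 with control AAV2 (SD, n = 3 each). Grin2d averaged 16.8 ± 1.64 CPM with Tppp3 AAV2 and 16.7 ± 0.903 with control AAV2. The log2 fold changes of Grin2a, Grin2c and Grin2d were 0.12, -0.062 and 0.014. Within the NMDA level per length, Grin2b made up 4.72%, 4.87% and 4.78% with Tppp3 AAV2 and 4.20%, 3.99% and 4.15% with control AAV2. Grin1 made up 72.4% with Tppp3 AAV2 and 72.7% with control AAV2 on average. Among Grin2a, Grin2b, Grin2c and Grin2d alone, the Grin2b shares overlapped between groups. They were 23.2%, 20.9% and 21.2% with Tppp3 AAV2 and 21.1%, 18.7% and 18.6% with control AAV2.

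Grin3a and Grin3b encode glycine-binding subunits that lower calcium permeability. Grin3b was the only gene of the set whose Tppp3 AAV2 libraries all lay below the control libraries, at 1.52, 1.08 and 1.28 CPM against 2.12, 1.91 and 1.81 CPM. These values rest on 30, 24 and 27 counts with Tppp3 AAV2 and 24, 31 and 20 counts with control AAV2. The log2 fold change was -0.58 (95% interval -1.25 to 0.084, edgeR unadjusted p = 0.0806 and adjusted p = 0.730). Grin3a averaged 10.5 ± 1.01 CPM with Tppp3 AAV2 and 10.2 ± 0.934 with control AAV2 (SD, n = 3 each).

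**Figure D4:**
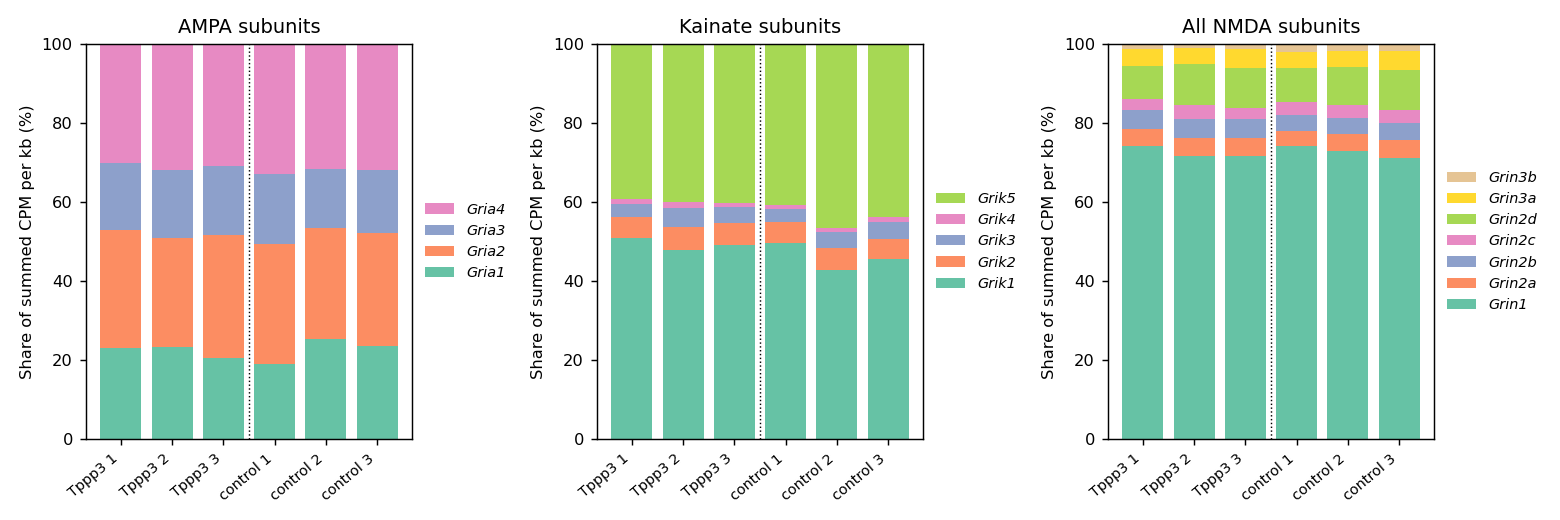
Share of each AMPA, kainate and NMDA subunit in the summed level per kb of its class (percent, vertical axis) in each library, with the 3 Tppp3 AAV2 libraries left of the dotted line and the 3 control AAV2 libraries right of it. Grin1 fills 71.2% to 74.1% of the NMDA bars, and the AMPA shares overlap between groups. Grik5 and Grin3b are smaller, and Grin2b larger, in each Tppp3 AAV2 bar than in any control bar. Grin3b, on few counts, holds 1.05% to 1.40% with Tppp3 AAV2 and 1.75% to 1.94% with control AAV2.

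Metabotropic receptors are grouped by their G proteins: Grm5 raises calcium through Gq, while Grm2, Grm3, Grm4, Grm7 and Grm8 lower cyclic AMP. None of these 6 genes had an unadjusted p under 0.05 in edgeR, and none separated the groups. Grm5 had 29.4, 29.5 and 35.04 CPM with Tppp3 AAV2 and 32.7, 27.4 and 27.2 CPM with control AAV2. Its log2 fold change was 0.11 (edgeR adjusted p = 0.858). Grm2, expressed in the retina by starburst amacrine cells, had 16.5, 15.5 and 18.2 CPM with Tppp3 AAV2 and 17.5, 14.8 and 14.4 CPM with control AAV2 (log2 fold change 0.11, edgeR adjusted p = 0.880). Without Tppp3 AAV2 replicate 3 these log2 fold changes were 0.015 for Grm5 and 0.040 for Grm2. In both genes the highest Tppp3 AAV2 value was that of replicate 3 and the highest control value that of replicate 1.

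Grm3, Grm4, Grm7 and Grm8 varied within both groups. Grm4 spanned 8.48 to 14.7 CPM with Tppp3 AAV2, wider than the 11.3 to 12.4 CPM of the controls. Grm8 stood at 27.4, 25.8 and 33.5 CPM with Tppp3 AAV2 and at 23.3, 33.1 and 33.1 CPM with control AAV2, control replicate 1 being lowest. Grm7 averaged 23.6 ± 2.85 CPM with Tppp3 AAV2 and 25.1 ± 1.12 with control AAV2 (SD, n = 3 each). Grm3 averaged 1.72 ± 0.392 CPM with Tppp3 AAV2 and 1.74 ± 0.546 with control AAV2. Grm3 rested on 18 to 42 counts per library and its log2 fold change had a 95% interval of -0.89 to 0.89. Per length, Grm8 and Grm7 were the largest shares of the class, at 26.7% and 20.2% with Tppp3 AAV2 and 27.6% and 21.4% with control AAV2.

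All 3 uptake transporters had positive fold changes, and 2 of them separated the groups. Of all tested genes, 50.9% had a positive fold change and 6.92% separated the groups on the higher side. Slc1a7 (EAAT5), a transporter of photoreceptors and bipolar cells with a large chloride conductance, had 128, 120 and 130 CPM with Tppp3 AAV2 and 119, 115 and 108 CPM with control AAV2. The lowest Tppp3 AAV2 library and the highest control library were 119.8 and 118.8 CPM. Its log2 fold change was 0.14 (95% interval 0.023 to 0.26, edgeR unadjusted p = 0.0241 and adjusted p = 0.652), and 0.17 with the length and GC offset. Leaving out 1 library gave 0.11 to 0.18, with an unadjusted p over 0.05 in 4 of 6 such fits. Slc1a2 (GLT-1), which in the retina is made mainly by neurons, stood at 349, 359 and 347 CPM with Tppp3 AAV2 and at 323, 339 and 321 CPM with control AAV2. Each Tppp3 AAV2 library was again above each control library. Its log2 fold change was 0.10 (95% interval -0.0033 to 0.20, edgeR unadjusted p = 0.0565 and adjusted p = 0.702), and 0.032 with the offset.

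Slc1a1 (EAAC1), a neuronal transporter, averaged 50.3 ± 3.64 CPM with Tppp3 AAV2 and 44.5 ± 6.14 with control AAV2 (SD, n = 3 each), with overlap and a log2 fold change of 0.18. It was 0.094 without control replicate 3 and 0.28 without control replicate 1. Its value is uncertain, since 32.0% of its exon bases in the GENCODE annotation are shared with 4430402I18Rik on the opposite strand. Markers of Müller glia, the main site of glutamate clearance, were positive in 7 of 7 genes, with a median log2 fold change of 0.15 and sums of 4720.5 to 5586 CPM with Tppp3 AAV2 and 4264 to 5094 CPM with control AAV2, which overlap. In edgeR none of the 7 had an unadjusted p under 0.05. Aqp4 did in DESeq2 (unadjusted p = 0.00624) and in voom (unadjusted p = 0.0243), and Glul did in voom (unadjusted p = 0.0482). The part of these 7 markers in the transporter differences was not tested. Slc1a3, the glial glutamate transporter, is 1 of them, with 215, 230 and 195 CPM with Tppp3 AAV2, against 199.96, 209 and 223 CPM with control AAV2.

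**Figure D5:**
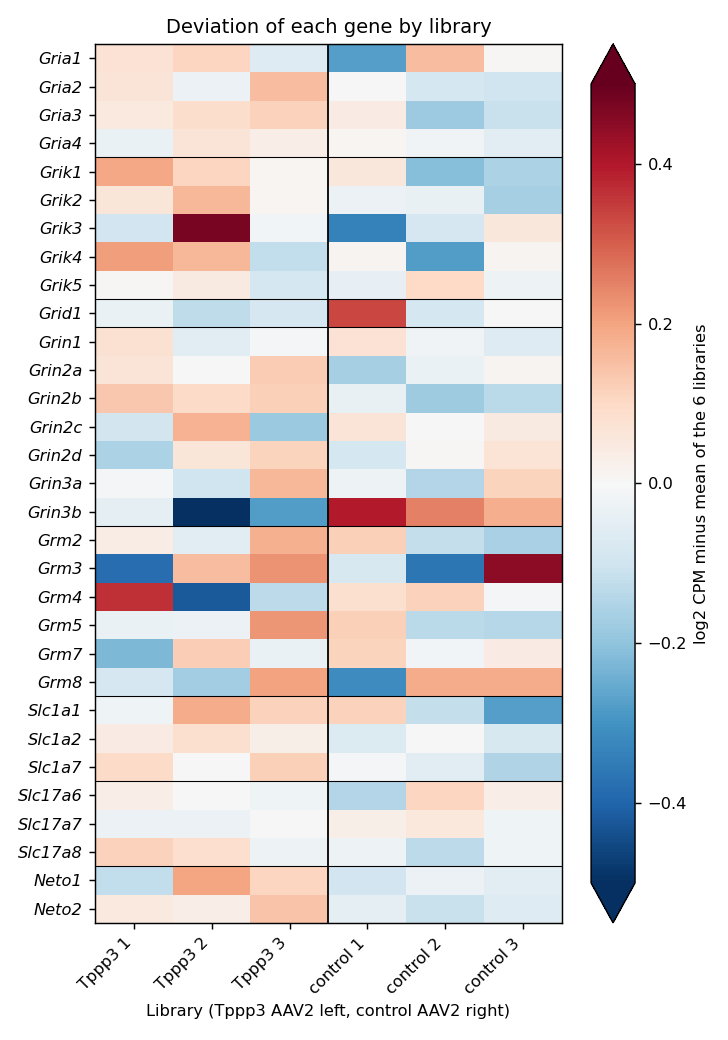
Log2 CPM of 31 of the 33 genes, each minus its mean over the 6 libraries, in colour (red higher, blue lower, saturated beyond 0.5), with Tppp3 AAV2 libraries left and control AAV2 libraries right of the line. Grin2b is red in all 3 Tppp3 AAV2 columns and blue in all 3 control columns, whereas Grm3, Grm4 and Grm8 vary as much within a group as between groups.

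Seen by library, the mean deviation over the 33 genes from their 6-library mean was 0.013, 0.025 and 0.044 on the log2 scale in Tppp3 AAV2 replicates 1, 2 and 3 and -0.0086, -0.047 and -0.025 in control AAV2 replicates 1, 2 and 3. AMPA genes stood at 0.039 to 0.059 with Tppp3 AAV2 and -0.066 to -0.033 with control AAV2, and uptake transporters at 0.037 to 0.089 with Tppp3 AAV2 and -0.17 to 0.012 with control AAV2. Kainate genes ranged from -0.041 to 0.19 with Tppp3 AAV2 and from -0.10 to -0.056 with control AAV2. Neto1 and Neto2 together stood at -0.037 to 0.12 with Tppp3 AAV2 and -0.072 to -0.059 with control AAV2. NMDA genes overlapped, at -0.047 to 0.0071 with Tppp3 AAV2 and -0.017 to 0.031 with control AAV2. Vesicular transporters overlapped too, at -0.017 to 0.040 with Tppp3 AAV2 and -0.047 to 0.0088 with control AAV2. So did delta and metabotropic genes. The number of the 33 genes above their own mean was 19, 20 and 20 in the Tppp3 AAV2 libraries and 14, 9 and 12 in the control AAV2 libraries. Of all tested genes, 50.2%, 50.9% and 51.3% lay above their own mean in the Tppp3 AAV2 libraries. In the control AAV2 libraries 50.7%, 51.1% and 49.9% did. The summed level of the 33 genes, to which Slc17a7 contributed most, was 3459, 3459 and 3499 CPM with Tppp3 AAV2 and 3446, 3469 and 3332 CPM with control AAV2.

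Further genes of glutamate signalling, 67 in all, covered AMPA receptor auxiliary subunits, postsynaptic scaffolds, glutamate metabolism, amino acid transport and receptor signalling. Of the 66 tested, 0 passed in edgeR after adjustment, 4 (6.06%) were higher and 1 (1.52%) lower at an unadjusted p under 0.05, against 3.67% and 3.55% of all tested genes, and the median log2 fold change was 0.045. Cacng2 (stargazin), which carries AMPA receptors to the synapse, had 29.4, 28.5 and 28.8 CPM with Tppp3 AAV2 and 26.1, 25.3 and 21.1 CPM with control AAV2. The groups did not overlap (log2 fold change 0.26, edgeR adjusted p = 0.648). Slc7a11, the exchanger that imports cystine for glutamate, had 13.7, 11.8 and 14.2 CPM with Tppp3 AAV2 and 11.1, 5.72 and 9.04 CPM with control AAV2. It too separated the groups, with a log2 fold change of 0.63 (edgeR adjusted p = 0.648) that was 0.39 without control AAV2 replicate 2. On the lower side, Aldh18a1, which turns glutamate towards proline, averaged 37.2 ± 0.589 CPM with Tppp3 AAV2 and 43.1 ± 5.62 with control AAV2 (SD, n = 3 each; log2 fold change -0.22, edgeR adjusted p = 0.673). Leaving out 1 library gave -0.31 to -0.12. Slc1a5, a carrier of glutamine and other neutral amino acids, averaged 11.7 ± 1.25 CPM with Tppp3 AAV2 and 13.7 ± 0.688 with control AAV2 (SD, n = 3 each; log2 fold change -0.23, edgeR adjusted p = 0.730).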

How the data were processed

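Poly(A) RNA of whole retina was sequenced from libraries whose kit keeps no strand information, per the labels' protocols. The authors deposited 1 table of raw read counts per gene. The submitters' processing notes name GRCm39 and mm39, while no aligner, counter, annotation or strand setting is named (not given in the sources used here). Columns were assigned by sample title, which gave 3 Tppp3 AAV2 and 3 control AAV2 libraries. A further control sample had no matching column. The table also holds 1 column whose name marks a further Tppp3 library but matches no sample title. It was not used, and the treatment protocol, which counts more Tppp3 than control retinas, goes against the sample labels here. Each title carries its own number, and libraries of a group differed beyond counting noise (chi-square per gene 3.995 to 13.4). No label says whether they are separate mice, so p-values measure the spread between these samples.

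Counts were filtered with filterByExpr, scaled by TMM and tested with edgeR 4.0.16 (robust quasi-likelihood F test, Tppp3 AAV2 over control AAV2, no covariate) in R 4.3.3, with p-values adjusted by Benjamini and Hochberg over 14750 genes. The 95% intervals are from that fit. DESeq2 1.42.0, limma 3.58.1 (voom with quality weights) and other settings were alternatives. Lengths and GC content are of the longest protein-coding transcript in GENCODE M21 (GRCm38), matched by symbol, and exon overlaps are from the same annotation. No GRCm38 coordinate was applied to the counts. The fit with an offset for length and GC was added after seeing the data.

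The 33 genes and the other lists were chosen with earlier results of these data known. Values in every library are given for genes with an unadjusted p under 0.05, for the 2 of smallest p in each class and for the 3 of highest mean CPM, and the other genes are given more briefly. Results of 2 of the 33 genes are not reported here singly, and counts and medians over the 33 include them. From the further list, the 2 of smallest p in each direction are named. Figures were drawn with matplotlib 3.10.9.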

Additional observations from a re-analysis of the deposited data

How the results depend on the processing

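None of the 33 genes passed an adjusted p of 0.05 in any of the 18 fits. The count of 5 of the 33 genes at an unadjusted p under 0.05 on the higher side was 3 in DESeq2 (2.38% of all genes), 6 in voom (4.62%), 4 with counts thinned to equal depth (3.61%), 3 with the pigment epithelium marker level as covariate (4.11%; Gria1, Grik3 and Grin2b, so 4 of the 5 were no longer under it), 2 with the length and GC offset (2.00%), 2 with the offset and the replicate block (1.84%), and 1 to 6 when 1 library was left out. On the lower side the count of 0 was 1 (Grid1) with the pigment epithelium covariate and 0 to 1 when 1 library was left out (Grm4 without Tppp3 AAV2 replicate 1). Of all genes, 535 of 14750 were lower at that threshold with the covariate and 432 of 14827 without that library. A count of 1 of 33 (3.03%) is near these backgrounds. The median log2 fold change of 0.10 was 0.039 with the offset, 0.039 with offset and block, and 0.040 to 0.10 when 1 library was left out. With the pigment epithelium covariate Grm5 and Grm2 changed sign, to -0.0091 and -0.019, and the cause was not tested. In the other 236 of 238 refits of the 14 genes that the rule picks, direction stayed. The adjusted call stayed too, since no gene passed it in any fit. The unadjusted call was less stable. It was under 0.05 in 14 of 18 fits for Grik1, 13 for Slc1a7 and 9 each for Gria2 and Gria3. With counts thinned to equal depth, Gria2 and Gria3 were over 0.05 and Grik2 was under it.

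Over all genes, 0 passed the adjusted threshold on the higher side and 2 on the lower. Higher genes numbered 2 in DESeq2, 1 with the pigment covariate and 0 to 2 when 1 library was left out, and at an unadjusted p under 0.05 there were 542 in edgeR, 351 in DESeq2 and 681 in voom. Lower genes numbered 12 in DESeq2, 0 in voom (569 unadjusted), 6 without a low-count filter, 1 with the pigment covariate, 1 with the replicate block, 1 with offset and block, and 0 to 1 when 1 library was left out.

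Same-numbered libraries did not deviate together (correlations -0.029, 0.051 and -0.26). The highest correlation, 0.26, was between Tppp3 AAV2 replicate 3 and control AAV2 replicate 1. Such correlations cannot show how the samples were numbered, so a pairing that leaves no shared deviation would be missed. With the replicate block 5 of the 33 genes (15.2%) had an unadjusted p under 0.05 in edgeR on the higher side, against 3.81% of all genes. Their median log2 fold change over the 33 was 0.10 in that fit. Grin3b, Grm3 and Grik4 rest on few counts, which limits what their values can show.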
